A study of Mus musculus with 11 samples.

Results

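The Retnlg/Mmp8 neutrophils of the mouse lung are described here from droplet-based 3′ single-cell RNA sequencing of dissociated whole lungs in 11 libraries. A barcode counted as a neutrophil when it held 3 or more UMIs (unique molecular identifiers) of the receptor genes Csf3r and Cxcr2 together and 10 or more of S100a8 and S100a9. The Retnlg/Mmp8 neutrophils were chosen by these measured UMIs: a neutrophil was kept when the UMIs of Retnlg, Mmp8 and Mmp9, summed as R, exceeded those of Il1b, Cxcl2, Ptgs2 and Slc7a11, summed as I. Barcodes needed 1000 to 30000 UMIs and at most 14% mitochondrial UMIs. Of 69267 barcodes that met these limits, 6135 were neutrophils and 1397 of them were Retnlg/Mmp8 neutrophils. Another 4685 had I above R and are called Il1b/Cxcl2 neutrophils, and 53 had equal sums.

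The WT group (wild type at the p21 locus, +/+) had 1 library, p21Het (p21 +/-) had 3, p21mTert (p21 +/mTert) had 5 and p21mTertCD (p21 +/mTertCD) had 2. The gene for p21 is Cdkn1a, an inhibitor of cyclin-dependent kinases, and mTert is the mouse telomerase reverse transcriptase gene, placed at p21 so that it is induced in p21-positive cells. The labels do not spell out the CD allele. Mice of p21Het, p21mTert and p21mTertCD all had 1 unmodified p21 allele, and every mouse was given as 18 months old in the age labels except p21Het_1 (19 months) and p21mTert_1 (20 months), where the number after the group is the replicate. The sample titles give 18 months for these mice as well. WT_1, p21Het_1 and p21mTert_1 were deposited earlier than the other 8 libraries. Nothing in the labels says whether a library came from 1 mouse or from pooled mice, so p-values measure the spread between libraries.

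Neutrophils are short-lived phagocytes that are made in the bone marrow, circulate, and are held in large numbers in lung capillaries. During their formation they fill granules in order: primary granules with myeloperoxidase and elastase, secondary granules with lactoferrin (Ltf), cathelicidin (Camp), Ngp and lipocalin 2 (Lcn2), and tertiary granules with gelatinase (Mmp9). The granule transcripts are made during this formation and are largely shut down in circulating cells, while released and aging neutrophils gain chemokine and cytokine transcripts. Neutrophil proteases, Mmp8 and Mmp9 among them, can degrade lung matrix and are studied in emphysema.

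Total depth was 42038434 to 85988955 UMIs per library, and the Retnlg/Mmp8 neutrophils contributed 244359 to 2226353 of these. A median Retnlg/Mmp8 neutrophil had 3169 to 5424 UMIs and 1063 to 1444 detected genes, against 2779 to 4354 UMIs in the Il1b/Cxcl2 neutrophils of the same libraries. p21Het_3 stood apart with 26.2% neutrophils among its cells, against 2.71% to 13.6% in the other libraries. p21mTertCD_1 stood apart with 2.52% of its cells in a B cell gate, against 14.5% to 39.5%. Libraries shared 961 barcodes in all, 24 Retnlg/Mmp8 neutrophils carried such a barcode, and 0 barcodes were Retnlg/Mmp8 neutrophils in more than 1 library. Among the Retnlg/Mmp8 neutrophils, 7.16% to 20.9% per library held a UMI of a lymphocyte gene and 3.98% to 20.97% were among the highest doublet scores. These cells stayed in, and some results without them are given below.

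The rule used 11 genes, and the values of these genes between the 2 neutrophil states are a description of the choice. Retnlg (ENSMUSG00000022651, chromosome 16, 48872621 to 48874496, GRCm38), a secreted resistin-like protein, made up 86.3% of the UMIs in R. Mmp8 (ENSMUSG00000005800, chromosome 9, 7558456 to 7568485), neutrophil collagenase, made up 5.84%, and Mmp9 (ENSMUSG00000017737, chromosome 2, 164940780 to 164955850), gelatinase B, 7.85%. The choice was therefore mostly a weighing of Retnlg against Il1b, since Il1b made up 66.5% of the UMIs in I. Retnlg ranged from 11702 to 16791 CPM (counts per 1000000 UMIs of the summed cells; median 13495) over the 11 libraries in the Retnlg/Mmp8 neutrophils and from 1544 to 3769 (median 2255) in the Il1b/Cxcl2 neutrophils. Mmp8 ranged from 492 to 1391 CPM (median 840) and from 180 to 285 (median 221). Neither gene overlapped between the states, as the rule made likely.

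Il1b, the precursor of interleukin 1 beta, had a median of 19 UMIs per Retnlg/Mmp8 neutrophil, beside a median of 53 for Retnlg. S100a8 (ENSMUSG00000056054, chromosome 3, 90668978 to 90670035), a calprotectin subunit, had a median of 421 UMIs and a mean log2 ratio between the states of 1.07 ± 0.14 (SD, n = 11). Csf3r and Cxcr2, the receptors for G-CSF and for CXC chemokines, had ratios of -0.25 and -0.04. At the boundary, where the rule itself sets R and I close together, 41 cells with R higher than I by 1 UMI had medians of 27 (R), 26 (I) and 596 (S100a8 and S100a9 together), the 53 cells with equal sums had 27, 27 and 593, and the 48 cells with R lower by 1 UMI had 17, 18 and 516. Over all Retnlg/Mmp8 neutrophils the medians were 62, 27 and 980, and over all Il1b/Cxcl2 neutrophils 12, 55 and 426. At the receptor limit, 18 Retnlg/Mmp8 neutrophils had exactly 3 UMIs of Csf3r and Cxcr2, and the 15 cells left out with 2 had a median of 12773 UMIs per cell, against 3144.5 in those 18.

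The cells carried a neutrophil identity by markers that the rule did not use. All 14 such markers were detected, among them Ly6g, Lcn2, Trem1, Hdc and Il1r2, and their summed level was 16793 to 23223 CPM per library, against 528 to 2627 CPM in all cells outside the neutrophil gate. The primary granule genes Mpo and Elane were near 0, with 2 and 3 UMIs in 7563188, and Ctsg was at 0. Other members of the primary granule list were detected: Prtn3, proteinase 3, was at 0 to 14.3 CPM per library, the protease inhibitor gene Serpinb1a at 8.18 to 318 and lysozyme, Lyz2, at 2709 to 6088, and 5 of the 10 genes had at least 10 CPM in either neutrophil state. Monocyte markers summed to 618 to 1706 CPM, against 916 to 2524 in all cells outside the neutrophil gate. They were above those cells in WT_1, p21Het_1 and p21Het_2. Dendritic cell markers summed to 71.3 to 2912 CPM (4310 to 8139 outside) and B cell markers to 65.7 to 918 (1898 to 5422 outside), both highest in WT_1. Markers of basophils and mast cells were at 0 for 4 of 5 genes and summed to 0 to 32.0 CPM per library. Of 6 eosinophil markers 5 were detected, with Siglecf at up to 17.1 CPM and Epx, the eosinophil peroxidase gene, at 0, and they summed to 4.39 to 17.5 CPM. Of 10 markers of immature neutrophils and progenitors, 9 were detected, among them Chil3 at 115 to 1592 CPM. They summed to 196 to 23517 CPM (723 to 9585 outside). This sum was above the outside cells in p21Het_1, p21Het_2, p21mTert_2, p21mTert_4, p21mTert_5 and p21mTertCD_2. The label of mature cells thus held for Mpo, Elane and Ctsg but not for this summed list in every library. The secondary granule transcripts of Ngp, Camp and Ltf, which are on it, were present in some cells, as described further below. Epithelial markers summed to 1396 to 11615 CPM, and Sftpc, the surfactant transcript of alveolar type 2 cells, had a UMI in 42.3% of Retnlg/Mmp8 neutrophils and in 43.2% of cells in the B cell gate when each cell was thinned to 1000 UMIs (87.8% and 89.1% unthinned, at median depths of 4584 and 4237 UMIs), so this share is at background.

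Outside the 11 genes, Retnlg/Mmp8 neutrophils had higher levels than Il1b/Cxcl2 neutrophils of 7 of 11 secondary granule genes in every library, and lower levels of 19 of 25 NF-kB and inflammatory genes. The surface protein gene Ly6g was higher and the chemokine genes Ccl3 and Ccl4 were lower. Because the rule made this contrast, it is described with no test, as the mean log2 ratio of CPM (pseudocount 1) over 11 libraries. Of 6718 genes with at least 10 CPM in either state, 19 (0.283%) were at least 2-fold higher on average and higher in all 11 libraries, and 229 (3.41%) were at least 2-fold lower and lower in all 11. Counting any size, 99 genes (1.47%) were higher in all libraries and 925 (13.8%) were lower in all. The median ratio over all genes was -0.37, so values below are to be read against that shift.

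Ngp (ENSMUSG00000032484, chromosome 9, 110419747 to 110423012), a cathelicidin-related protein of secondary granules, had the highest ratio at 7.05 ± 3.72 (SD, n = 11), with library values from 2.39 to 12.3. Ly6g, the surface antigen that defines mouse neutrophils, had a ratio of 2.33 ± 0.83, and Cd177, a surface partner of Mac-1 integrin, 2.14 ± 1.20. Wfdc21 (1.54 ± 0.33), Lcn2, the siderophore-binding lipocalin 2 (1.53 ± 0.62), and Ly6c2 (1.42 ± 1.00) followed. Smaller ratios with every library above 0 were those of Scrg1 (1.34), Ckap4 (1.11), Rflnb (1.08), Atxn10 (1.02), Slc27a4 (0.99), the SNARE protein gene Stx11 (0.84), Msra (0.84), Pram1 (0.80) and Timp2, a metalloproteinase inhibitor (0.79). At the other end stood Ccl3 (-2.75 ± 1.02) and Ccl4 (-2.07), chemokines that attract monocytes and T cells, and Clec4n (-2.43), the lectin dectin 2. Lower values were also found for the chemerin-binding receptor Ccrl2 (-1.92), the adhesion ligand Icam1 (-1.86), the growth factor Csf1 (-1.70), Grk3 (-1.98), Gngt2 (-1.75), Adgre4 (-1.89), Ccdc88a (-1.85), Camk2d (-1.80) and Ly6c1 (-1.70). Cldn5 (-1.90), Ace (-2.04) and Slc34a2 (-1.99) are transcripts of endothelial cells, monocytes or endothelium, and alveolar type 2 cells. The summed endothelial markers were 20.5 to 325 CPM in Retnlg/Mmp8 neutrophils and 75.5 to 834 CPM in Il1b/Cxcl2 neutrophils. Summed monocyte markers were 618 to 1706 and 1259 to 2530 CPM, and lower in Retnlg/Mmp8 neutrophils in every library. Ly6c2 is among these monocyte markers and was itself higher. The part of such RNA in these 3 ratios and in the other lower ratios was not tested.

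**Figure D1:**
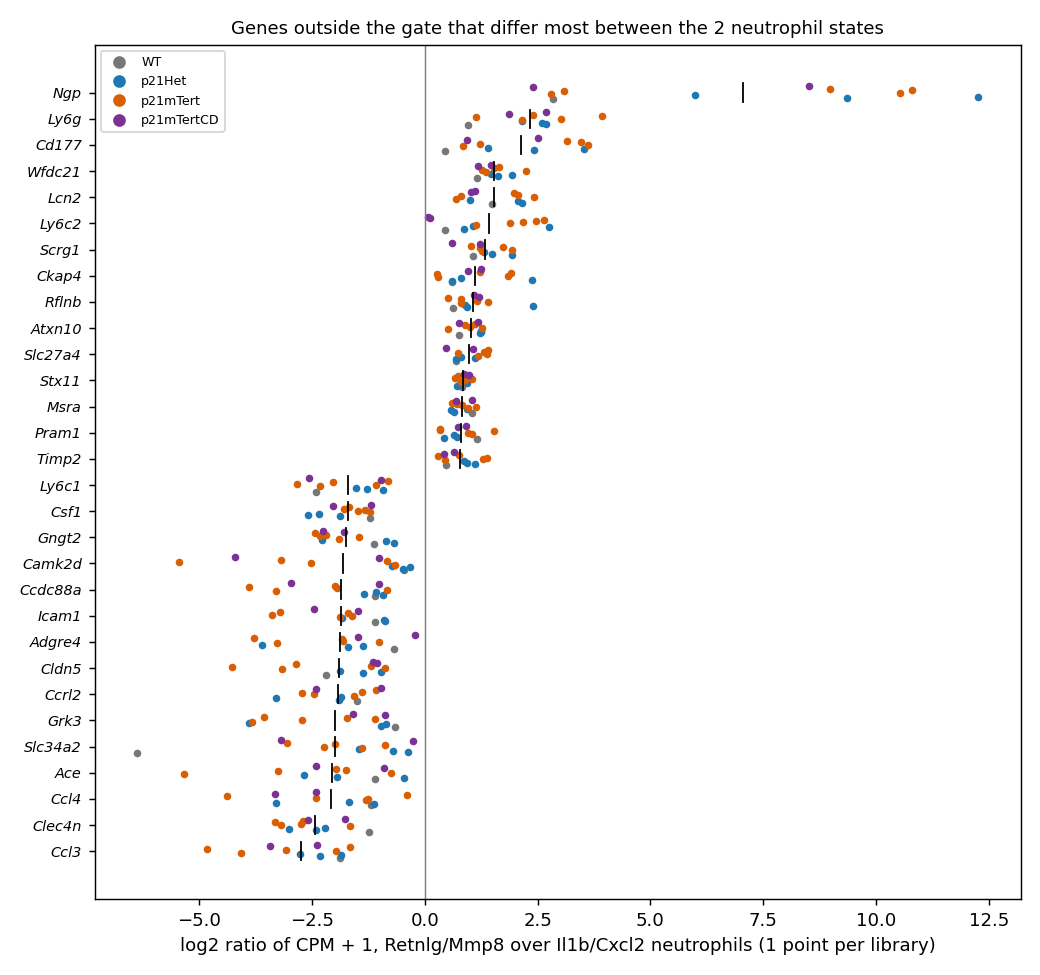
Mean log2 ratio of Retnlg/Mmp8 over Il1b/Cxcl2 neutrophils for the named genes, with the ratio of each of the 11 libraries as a point coloured by group and the mean as a black line. Ngp spread from 2.39 to 12.3, while Stx11 kept a mean of 0.84, and the genes on the lower side reached -2.75 for Ccl3.

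The genes were also counted by list, beside 1.47% of all genes that were higher in all libraries and 13.8% that were lower. Of 11 secondary granule genes, 7 were higher in all 11 libraries and 4 of these at least 2-fold, with a list median of 1.53. Beyond Ngp, Cd177, Wfdc21 and Lcn2 these were the annexin Anxa1 (0.69), the peptidoglycan-binding Pglyrp1 (0.55) and haptoglobin, Hp (0.40). Camp and Ltf had large mean ratios (6.54 and 4.46) but were higher in 8 of 11 libraries. Of 25 NF-kB and inflammatory genes, 19 were lower in all libraries and 8 at least 2-fold, with a median of -0.87. They included the inhibitors of NF-kB signalling Nfkbia (-1.66) and Tnfaip3 (-1.12), superoxide dismutase 2 (Sod2, -1.13) and Tnf (-0.95). Of 19 survival and apoptosis genes, 8 were lower in all libraries, but the list median of -0.45 was close to the shift of all genes (-0.37). Among the 8 were Pmaip1, which promotes apoptosis (-1.48), Gadd45b (-1.34) and the near-identical Bcl2a1a, Bcl2a1b and Bcl2a1d (-1.77, -1.56 and -1.75), whose counts can be split between copies. Of 16 immediate early genes, 10 were lower in all libraries (median -0.45).

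Other lists were mixed or near the shift of all genes. Of 22 glycolysis and hypoxia genes, 5 were higher in all libraries and 0 lower, against a list median of -0.05. These were the hexokinase gene Hk3 (0.70), the glucose transporter gene Slc2a3 (0.48), Gpi1 (0.45), Gapdh (0.38) and Pkm (0.23). Of 15 chemoattractant receptor genes, 4 were lower in all libraries: Ccrl2, the platelet-activating factor receptor gene Ptafr (-0.96), Clec4e (-0.39) and Cxcr4 (-0.88 ± 0.28), the receptor that marks aged neutrophils for return to the marrow. In adhesion and recirculation, Ly6g was higher and Icam1, Itga4 (-0.97), Itgal (-0.60) and Cd44 (-0.38) were lower in all libraries. Among proteases and inhibitors, Adam8 (0.54), Stfa2l1 (0.55) and Timp2 were higher in all libraries. The lysosomal cathepsins Ctss (-1.25), Ctsb (-1.11) and Ctsz (-0.92) were lower in all libraries. The part of monocyte RNA in the lower ratios of these adhesion and protease genes was not tested. Of the 28 interferon response genes above the minimum, 0 were higher and 4 lower in all libraries (1.47% and 13.8% of all genes). Their median was -0.43, beside -0.37 over all genes.

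The secondary granule genes Ngp, Camp and Ltf were detected in few of the cells, and their levels differed between libraries of the same genotype. A UMI was found in 12.03% (Ngp), 3.44% (Camp) and 3.87% (Ltf) of Retnlg/Mmp8 neutrophils without thinning, against 0.139%, 0.0950% and 0.298% of cells in the B cell gate. Ngp was at 2187, 11105 and 560 CPM in p21Het_1 to p21Het_3. It was at 33.4, 4647, 36.8, 4736 and 3149 CPM in p21mTert_1 to p21mTert_5, at 21.9 and 2144 in p21mTertCD_1 and p21mTertCD_2, and at 30.6 in WT_1. Within p21mTert, 2 libraries were thus near the level of WT_1 and 3 far above it, and the 2 p21mTertCD libraries differed likewise. Camp, the cathelicidin precursor, was at 2022, 6712 and 343 CPM in p21Het, at 0, 2985, 4.09, 2621 and 2475 in p21mTert, at 0 and 760 in p21mTertCD, and at 0 in WT_1. Ltf (chromosome 9, 111019271 to 111042767) had its highest level, 3923 CPM, in the same library as Ngp and Camp, p21Het_2.

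Cells with 3 or more UMIs of Camp, Ltf and Ngp together were counted after thinning to 1000 UMIs. They made up 2.86% of Retnlg/Mmp8 neutrophils (5.23% unthinned) and 0 of 4685 Il1b/Cxcl2 neutrophils (0.192% unthinned). A count of 0 allows up to 0.0640% of cells at this thinned depth and sets no limit on the cells that express the genes. The share was 4.76%, 18.2% and 0.796% in p21Het, 0%, 6.25%, 0%, 8.07% and 8.26% in p21mTert, 0% and 2.44% in p21mTertCD and 0% in WT_1. Groups overlapped, and at this thinned depth 0 cells allow up to 3.49% in WT_1, 3.23% and 5.56% in p21mTert_1 and p21mTert_3, and 1.00% in p21mTertCD_1. Without thinning these 4 libraries were at 1.16%, 1.08%, 1.85% and 1.00%, and p21Het_2 was again the highest at 24.2%. Ly6g had a UMI in 11.3% of thinned Retnlg/Mmp8 neutrophils and 3.18% of Il1b/Cxcl2 neutrophils (31.2% and 9.05% unthinned), and Lcn2 in 68.7% and 44.2% (86.6% and 67.1% unthinned). In the B cell gate, Ly6g had a UMI in 0.0127% of thinned cells and Lcn2 in 1.99% (0.0444% and 7.86% unthinned), and median depths were 4584, 3864 and 4237 UMIs in the order Retnlg/Mmp8, Il1b/Cxcl2 and B cell gate. Cxcr4 went the other way, with 25.8% and 42.4% in the 2 neutrophil states (67.9% and 81.3% unthinned), and B cells, which express Cxcr4, give no background for it.

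**Figure D2:**
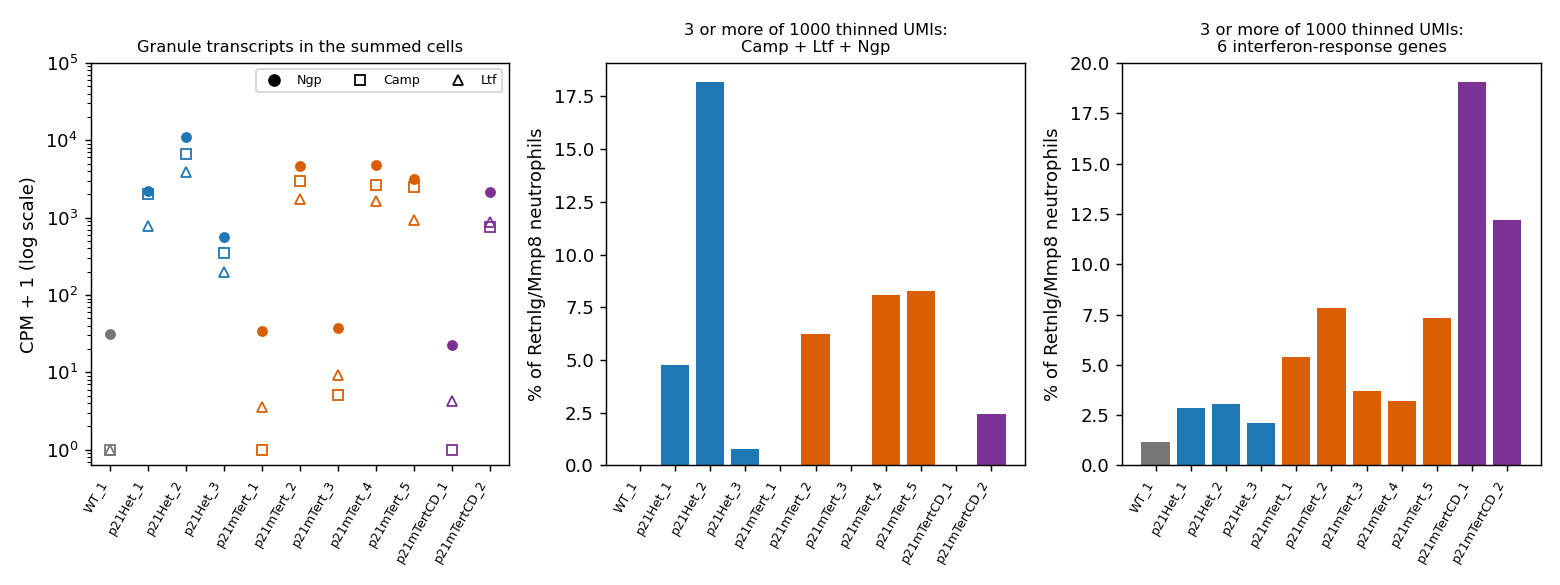
CPM + 1 of Ngp, Camp and Ltf by library on a log axis, and bars of the percentage of Retnlg/Mmp8 neutrophils with 3 or more of 1000 thinned UMIs of the granule genes or of 6 interferon genes. The granule measure reached 18.2% in p21Het_2 and was at 0% in 4 libraries, and the interferon measure was highest in the 2 p21mTertCD libraries (19.1% and 12.2%).

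The promoters of Ngp, Camp and Ltf are shown because these genes had their highest levels in the same library and were all scarce in the same 4 libraries. That of Mmp8, a gene of the rule, is shown beside them. C/EBP factors, C/EBP epsilon above all, are known to drive secondary granule genes, so the core TTGCNNAA, or TTNNGCAA on the other strand, was searched in the 250 bases upstream of the start in RefSeq promoters (GRCm38.p6). The core was in 2930 of 27025 promoters (10.8%) and in 4 of the 9 secondary granule genes with an entry (44.4%). Capitals mark the core, and the windows lie at chr9:110419648-110419807 on the plus strand for Ngp, chr9:109849457-109849616 (minus) for Camp, chr9:111019132-111019291 (plus) for Ltf and chr9:7558269-7558428 (plus) for Mmp8. Camp held no match in the bases searched. RefSeq and GENCODE place some starts differently: the Camp window lies inside the GENCODE gene, and the Ngp and Ltf windows reach past the GENCODE starts. A match describes letters only and shows no binding.
Ngp: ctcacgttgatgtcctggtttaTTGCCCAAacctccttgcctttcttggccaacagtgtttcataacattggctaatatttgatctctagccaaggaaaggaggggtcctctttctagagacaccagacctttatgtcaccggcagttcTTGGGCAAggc
Camp: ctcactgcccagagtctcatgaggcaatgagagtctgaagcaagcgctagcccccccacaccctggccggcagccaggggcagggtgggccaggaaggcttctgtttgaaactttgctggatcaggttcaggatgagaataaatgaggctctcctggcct
Ltf: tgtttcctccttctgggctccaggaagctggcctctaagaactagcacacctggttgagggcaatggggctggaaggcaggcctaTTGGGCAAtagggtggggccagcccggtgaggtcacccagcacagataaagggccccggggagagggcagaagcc
Mmp8: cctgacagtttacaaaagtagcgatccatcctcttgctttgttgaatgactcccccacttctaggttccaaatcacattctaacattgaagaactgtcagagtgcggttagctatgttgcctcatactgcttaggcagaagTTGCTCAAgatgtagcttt

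The share of cells was examined next, asking whether an mTert allele at p21 went with more or fewer Retnlg/Mmp8 neutrophils. Fewer cells of a type and a loss of these cells in tissue dissociation cannot be told apart here. Of all filtered cells, Retnlg/Mmp8 neutrophils made up 1.69%, 0.774% and 6.43% in p21Het, 1.49%, 0.851%, 0.856%, 0.990% and 2.31% in p21mTert, 4.56% and 1.46% in p21mTertCD, and 1.57% in WT_1 (exact Clopper-Pearson 95% interval 1.26% to 1.94%, counting error only). Group means were 2.96% ± 3.03 (SD, n = 3), 1.30% ± 0.623 (SD, n = 5) and 3.01% ± 2.19 (SD, n = 2). All 3 pairs of groups overlapped. The difference was -1.66 points for p21mTert minus p21Het (2-sided exact permutation p = 0.268, adjusted 0.402 over 6 share tests), and it was 0.0684 points without p21Het_3. For p21mTert minus p21mTertCD it was -1.71 points (exact permutation p = 0.143, adjusted 0.381), and it was -0.165 points without p21mTertCD_1 and -3.26 without p21mTertCD_2. For p21mTertCD minus p21Het it was 0.0484 points (exact permutation p = 1), and -1.50 to 1.78 points with 1 library left out.

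As a share of neutrophils, the Retnlg/Mmp8 state was at 23.6%, 28.6% and 24.6% in p21Het and at 16.1%, 10.3%, 20.6%, 19.4% and 22.6% in p21mTert. It was at 33.5% and 19.4% in p21mTertCD and at 24.7% in WT_1 (exact Clopper-Pearson 95% interval 20.3% to 29.6%). Every p21mTert library lay below every p21Het library, and the 2 p21mTertCD libraries lay on both sides of p21Het. p21Het averaged 25.6% ± 2.64 (SD, n = 3) and p21mTert 17.8% ± 4.81 (SD, n = 5), a difference of -7.77 points (2-sided exact permutation p = 0.0536, smallest possible 0.0179, adjusted 0.321), which did not pass 0.05. p21mTertCD averaged 26.5% ± 9.99 (SD, n = 2). Its difference from p21mTert was -8.64 points for p21mTert minus p21mTertCD (exact permutation p = 0.190, smallest possible 0.0476, adjusted 0.381), but -1.58 points without p21mTertCD_1. p21mTertCD minus p21Het was 0.877 points (exact permutation p = 0.9), where 2 against 3 libraries cannot give a p under 0.1. With 1 library left out this difference was -6.19 to 7.94 points.

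The value for p21mTert minus p21Het depended on the genes of the rule. It was -7.03 points with cells thinned to 1000 UMIs (exact permutation p = 0.0714), -1.89 points with Retnlg left out of R (p = 0.0536) and -4.93 points with Il1b left out of I (p = 0.661). In the 6 later-deposit libraries of both groups it was -8.34 points (exact permutation p = 0.133, smallest possible 0.0667), and permuting within deposits gave p = 0.1. It was -8.43 points without the highest doublet scores and -7.86 points without cells holding a lymphocyte UMI (exact permutation p = 0.0357 in both, unadjusted). The earlier deposit held 1 library of each of these groups and gives no test.

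**Figure D3:**
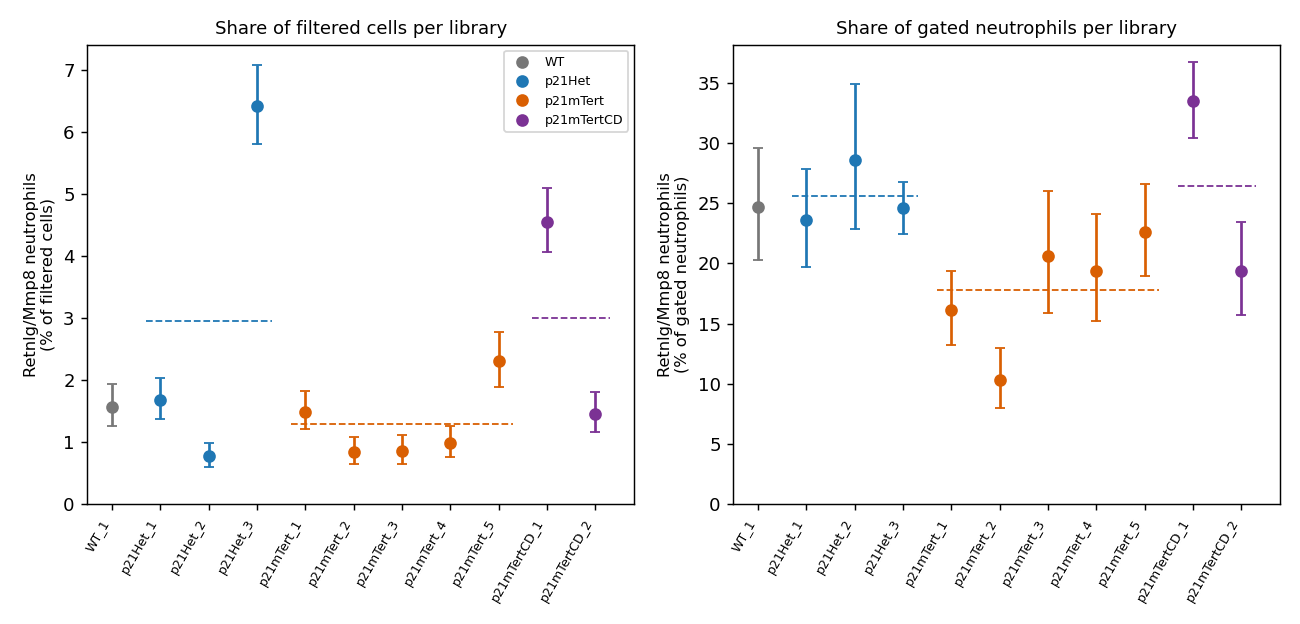
Retnlg/Mmp8 neutrophils as a percentage of filtered cells and as a percentage of gated neutrophils, per library, coloured by group (bars are exact Clopper-Pearson 95% intervals of counting error, and dashed lines are group means). In the second measure the 5 p21mTert libraries, at 10.3% to 22.6%, lie below the 3 p21Het libraries, at 23.6% to 28.6%.

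The genes behind R and I were read over all neutrophils, where the division into states does not enter. R was 62.3, 69.4 and 70.9 UMIs per 10000 in p21Het and 55.5, 38.9, 58.6, 61.1 and 74.2 in p21mTert, which overlap. I was 98.9, 113.2 and 119.3 UMIs per 10000 in p21Het and 132.2, 125.8, 116.0, 130.5 and 117.8 in p21mTert, which overlap too. Retnlg was at 5053, 5630 and 5569 CPM in p21Het and at 4424, 2845, 4784, 4731 and 5720 in p21mTert, a log2 fold change of -0.42 (SE 0.25, edgeR quasi-likelihood test with Benjamini-Hochberg adjustment over 10164 genes, adjusted p = 0.988). Ptgs2 (chromosome 1, 150100031 to 150108227), the inducible cyclooxygenase COX-2, was at 612, 336 and 448 CPM in p21Het and 955, 812, 744, 915 and 878 in p21mTert. These groups did not overlap, and the log2 fold change of 0.80 (SE 0.16, unadjusted p = 0.000288) had an adjusted p of 0.468 by the same test. Ptgs2 was at 447 and 689 CPM in p21mTertCD and 771 in WT_1. Il1b (0.15), Mmp8 (-0.42), Mmp9 (-0.15) and Cxcl2 (-0.44) were not called either, with an adjusted p of 1.0 for each by edgeR.

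The targeted genes came first among comparisons within the Retnlg/Mmp8 neutrophils. Tert (ENSMUSG00000021611, chromosome 13, 73626911 to 73649843) had 7 UMIs in all: 1 in p21Het_2, 2 in p21mTert_5, 4 in p21mTertCD_1 and 0 in the other 8 libraries. These are too few to compare the groups, and the reason for the low count was not tested. Cdkn1a (ENSMUSG00000023067, chromosome 17, 29090976 to 29100727) had 875 UMIs. It was at 187, 92.3 and 119 CPM in p21Het, 87.5, 91.4, 77.8, 165 and 60.4 in p21mTert, 137 and 63.0 in p21mTertCD and 117 in WT_1. The groups overlapped. Cdkn1a had a log2 fold change of -0.53 (SE 0.31) for p21mTert minus p21Het, -0.19 for p21mTert minus p21mTertCD and -0.34 for p21mTertCD minus p21Het, with edgeR adjusted p of 0.925, 1.0 and 1.0. The deposited counts per gene do not separate the modified allele from the unmodified one.

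For p21mTert minus p21Het, which compares mice with and without mTert at the modified p21 allele, 0 of 4848 genes outside the rule were called at an adjusted p under 0.05 (edgeR quasi-likelihood test, Benjamini-Hochberg). At an unadjusted p under 0.05 there were 289 genes (5.96%), and DESeq2 called 2, Cp and Cd3g. Library values did not overlap for 127 genes that were higher in p21mTert (2.62%) and 45 that were lower (0.928%). edgeR called 10 genes without p21Het_3, the library with most Retnlg/Mmp8 neutrophils (377). On simulated counts with 200 changed genes, the test recovered 37% of 2-fold and 90% of 4-fold changes. The recovery in the measured counts was not tested. Changes of 2-fold or less could be missed, and larger ones too. In the measured counts edgeR did not call Cp (log2 fold change -4.68) or Cd3g (3.75), with an adjusted p of 0.420 for each.

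Xbp1 (chromosome 11, 5520659 to 5525893), a transcription factor of the unfolded protein response, was at 124, 114 and 124 CPM in p21Het and 79.7, 57.1, 73.7, 60.6 and 60.4 in p21mTert. The groups did not overlap, but the log2 fold change of -0.96 (SE 0.17) was not called (edgeR adjusted p = 0.256). Xbp1 was at 97.5 and 103 CPM in p21mTertCD and 107 in WT_1, above every p21mTert library. Chil1, a chitinase-like protein of neutrophil granules, was at 330, 452 and 296 CPM in p21Het and 149, 211, 147, 159 and 229 in p21mTert (log2 fold change -1.08, SE 0.24, edgeR adjusted p = 0.420). Stat4, which transmits interleukin 12 and interferon signals, had a log2 fold change of 1.11, Csf1, the macrophage growth factor, 1.01 and Vps37b, an ESCRT subunit, 0.81. Each of these 3 had p21mTert libraries above every p21Het library and edgeR adjusted p of 0.256 (Stat4) or 0.420 (Csf1 and Vps37b). Stat4 in p21mTertCD (71.0 and 63.0 CPM) and WT_1 (43.4) lay below every p21mTert library. Csf1 in WT_1 (122 CPM) and p21mTertCD_2 (110) lay within the p21mTert range, and p21mTertCD_1 (65.0) below it. Vps37b in p21mTertCD (317 and 423 CPM) lay within that range, and WT_1 (222) below it. Chil1 in WT_1 (153 CPM) lay within its p21mTert range, and p21mTertCD (270 and 261) above it.

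Other genes near the top of this comparison belong to other cell types. Cd3g and Cd3d, chains of the T cell receptor complex, had log2 fold changes of 3.75 and 2.57, and the activation antigen Cd69 of lymphocytes 2.92 (edgeR adjusted p = 0.420 for each). The 8 T and NK cell markers were all detected and summed to 10.98 to 101.3 CPM in p21Het, 85.7 to 486 in p21mTert, 139 to 391 in p21mTertCD and 10.2 in WT_1. Fabp4, a fatty acid-binding protein of endothelium and macrophages, had a log2 fold change of -3.69 and Cp, ceruloplasmin, -4.68. The part of lymphocyte and other RNA in these values was not tested.

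The lists held no called genes in this comparison. All 11 secondary granule genes had a negative log2 fold change in p21mTert minus p21Het, with a median of -0.71 against -0.02 over all genes tested, but 0 of the 11 were apart between the groups (background 0.928%). The median was -0.06 without p21Het_2, the library of highest Ngp, and -1.17 without the highest doublet scores. Lcn2, Ngp and Hp have the highest levels of that list. Of 22 glycolysis and hypoxia genes, 3 were positive, with a median of -0.22, and 0 were apart. Of 22 NF-kB and inflammatory genes, 14 were positive, with a median of 0.12, and 1, Csf1, was apart and higher (2.62% of all genes). Of 26 interferon response genes, 19 were positive, with a median of 0.56, and 1, the GTPase gene Irgm1, was apart and higher. Neither count is far from that background. That median was 0.20 without p21mTert_5 and 0.26 in a fit of the 2 groups alone.

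The difference of the p21mTert minus p21Het effect between the 2 neutrophil states was tested with the library as a block. Of 8430 genes, 0 were called by the edgeR interaction test (412 at an unadjusted p under 0.05, smallest adjusted p 0.189, DESeq2 not run for this test). It called 12 genes with the later deposit alone and 6 without p21mTert_1. The gene of smallest p was Nfib in the main fit, Gpx3 in the later deposit and Bgn without p21mTert_1. The part of other cells' RNA in these calls was not tested.

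For p21mTertCD minus p21Het, 1 of 4848 genes was called by edgeR with Benjamini-Hochberg adjustment (0.0206%), and it was Rtp4. Of 26 interferon response genes tested, 0 were called by edgeR, while DESeq2 called Slfn5 and Isg15 of the list. Both p21mTertCD libraries lay above every p21Het library for 21 of the 26, as for 7.63% of all genes. Rtp4 (ENSMUSG00000033355, chromosome 16, 23520291 to 23614222), a receptor transporter protein induced by interferon, was at 33.8, 30.8 and 58.8 CPM in p21Het and 238 and 205 in p21mTertCD. p21mTert libraries were at 41.2, 59.98, 49.1, 54.8 and 85.2 and WT_1 at 25.5 CPM, so both p21mTertCD libraries lay above all 9 others. Rtp4 rose from 41.1 ± 15.4 (SD, n = 3) to 221 ± 23.2 CPM (SD, n = 2), or by 2.29 on the log2 scale (SE 0.32, edgeR adjusted p = 0.0413).

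The size of the Rtp4 difference held better than its call. Over 21 alternatives the log2 fold change was 2.08 to 2.79, and the gene was called in 13 of them, with adjusted p from 3.52e-09 to 0.708. It was not called in a fit of the 2 groups alone (edgeR adjusted p = 0.394), without p21Het_1 (0.0991), without p21Het_2 (0.251), without p21mTert_2 (0.0979), p21mTert_3 (0.104) or p21mTert_4 (0.0970), or without p21mTertCD_1 (0.708) or p21mTertCD_2 (0.0646). The Il1b/Cxcl2 neutrophils had Rtp4 at 214 and 175 CPM in p21mTertCD, 33.7, 40.3 and 60.5 in p21Het, 44.6 to 96.3 in p21mTert and 61.9 in WT_1. The higher level was thus found in both neutrophil states. The B cell gate held 165 cells in p21mTertCD_1. In this gate Rtp4 was at 1.87 to 5.86 CPM over the 11 libraries, with a UMI in only 0.161% to 0.681% of thinned cells. Its levels in p21mTertCD, 2.65 and 4.41 CPM, lay within those of the other groups.

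Beside the 21 interferon response genes that lay higher, 1 gene of the list, Ifitm6, lay lower (6.5% of all genes). The list had 23 positive log2 fold changes and a median of 1.62, against -0.04 over all genes. Ifi27l2a (chromosome 12, 103442167 to 103443680), a small interferon-induced membrane protein that is not on the list, was at 153, 83.5 and 228 CPM in p21Het, 1613 and 679 in p21mTertCD, 296, 531, 147, 410 and 257 in p21mTert and 163 in WT_1. Its log2 fold change of 2.85 (SE 0.51) was not called (edgeR adjusted p = 0.146). It was called in 3 of 21 alternatives: with no filter on low counts, without the highest doublet scores and by DESeq2. The 2 p21mTertCD libraries lay above all 9 others for Ifi27l2a as well. They did so in the B cell gate too, where Ifi27l2a, unlike Rtp4, was often detected. There 25.5% and 28.8% of thinned cells held a UMI in p21mTertCD, against 12.8% to 24.6% in the other libraries.

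Isg15 (chromosome 4, 156199424 to 156200818), a ubiquitin-like modifier, was at 169, 134 and 166 CPM in p21Het, 598 and 421 in p21mTertCD, 129, 337, 201, 234 and 361 in p21mTert and 148 in WT_1. Its log2 fold change was 1.68 (SE 0.37, edgeR adjusted p = 0.455), and it was called in 2 of 21 alternatives, with no filter on low counts and by DESeq2. Slfn5, a schlafen family member, was at 55.1, 24.2 and 30.1 CPM in p21Het and 224 and 110 in p21mTertCD (log2 fold change 2.25, edgeR adjusted p = 0.146). Slfn5 was called in 3 of 21 alternatives: with no filter on low counts, without cells holding a lymphocyte UMI and by DESeq2. Ifi27l2a, Isg15 and Slfn5 were all higher in p21mTertCD_1 than in p21mTertCD_2.

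Of the interferon-induced genes given next, Oas3 was named by rule and is not on the list. Rsad2, Oasl2, Irf7 and Ifit3 were chosen from the list after their values were seen. Rsad2 (chromosome 12, 26442746 to 26456452), viperin, was at 35.5, 50.5 and 58.8 CPM in p21Het, 403 and 209 in p21mTertCD, 74.6, 431, 45.0, 121 and 202 in p21mTert and 40.8 in WT_1, so p21mTert_2 exceeded both p21mTertCD libraries. Oas3 (chromosome 5, 120753098 to 120777661), which makes 2′-5′ oligoadenylates, was at 28.4, 48.3 and 62.0 CPM in p21Het and 153 and 130 in p21mTertCD. The Rsad2 log2 fold change was 2.60 (edgeR adjusted p = 0.720) and that of Oas3 1.51 (adjusted p = 0.641). Oasl2 (1.39), a related protein, and Irf7 (1.18), a transcription factor that amplifies interferon production, were apart between the groups with edgeR adjusted p of 0.720. Ifit3, which binds viral RNA complexes, was at 3.55, 2.20 and 4.04 CPM in p21Het and 81.0 and 15.7 in p21mTertCD, and its counts are uncertain because Ifit3b is a near-identical copy. Ifitm1, Ifitm2 and Ifitm3, the members of the list with the highest levels, were not apart.

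**Figure D4:**
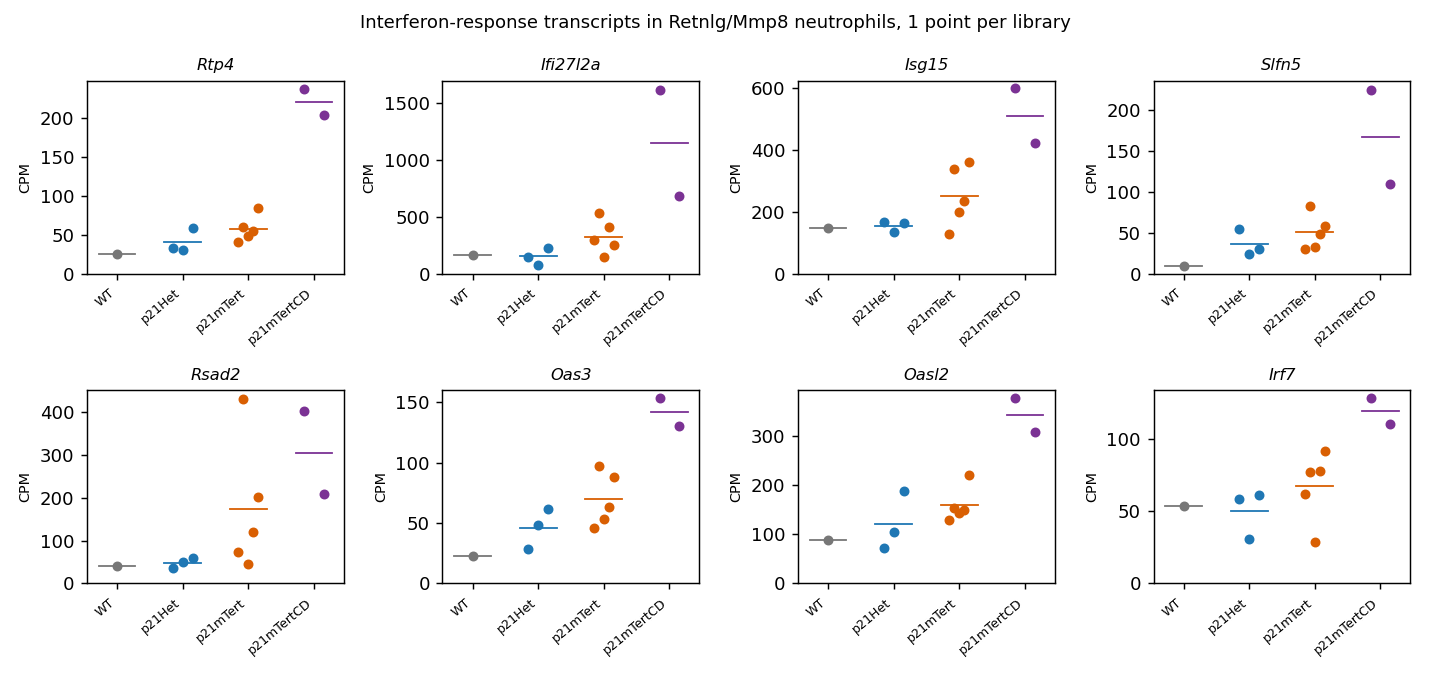
CPM of 8 interferon-induced genes in Retnlg/Mmp8 neutrophils by group, with each library as a point and the group mean as a line. Rtp4 reached 238 and 205 CPM in p21mTertCD against at most 85.2 in any other library, while for Rsad2 p21mTert_2 (431 CPM) lay above both.

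The promoters of 4 genes that were higher together are printed, chosen among those that hold the motif described here. The interferon-stimulated response element is a promoter motif of interferon-induced genes, and its core was searched on both strands in the 250 bases upstream of each RefSeq start (GRCm38.p6). It was found in 936 of 27025 promoters (3.46%), in 15 of the 29 interferon response genes with an entry (51.7%) and in 10 of the 19 with an entry among the 21 that were higher (52.6%). The search required GAAA followed, after any 2 bases, by GAAA again, or the reverse complement of this, and overlapping matches count separately. Capitals mark the core, with overlapping matches joined, and sequences are given on the gene's strand. The windows are chr4:156200819-156200978 (minus) for Isg15, chr12:26456453-26456612 (minus) for Rsad2, chr19:34583369-34583528 (plus) for Ifit3 and chr5:120777660-120777819 (minus) for Oas3. Isg15 held 3 overlapping matches, Ifit3 held 2, and Rsad2 and Oas3 held 1 each, and no binding was measured.
Isg15: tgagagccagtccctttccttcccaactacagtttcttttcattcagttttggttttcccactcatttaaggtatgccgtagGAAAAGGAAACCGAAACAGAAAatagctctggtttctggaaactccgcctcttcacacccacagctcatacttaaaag
Rsad2: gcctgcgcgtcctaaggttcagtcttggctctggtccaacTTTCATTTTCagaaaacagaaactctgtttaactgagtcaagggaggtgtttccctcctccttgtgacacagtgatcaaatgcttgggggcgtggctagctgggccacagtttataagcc
Ifit3: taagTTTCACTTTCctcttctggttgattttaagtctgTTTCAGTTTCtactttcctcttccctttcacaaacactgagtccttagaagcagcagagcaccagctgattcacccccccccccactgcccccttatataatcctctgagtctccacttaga
Oas3: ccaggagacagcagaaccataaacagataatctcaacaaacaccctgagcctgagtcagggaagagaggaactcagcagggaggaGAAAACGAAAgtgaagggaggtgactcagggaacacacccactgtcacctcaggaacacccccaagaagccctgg

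Interferon transcripts were also read per cell. Cells with 3 or more UMIs of Isg15, Ifit1, Ifit3, Ifit3b, Rsad2 and Oasl1 after thinning to 1000 UMIs made up 2.86%, 3.03% and 2.12% in p21Het, 5.38%, 7.81%, 3.70%, 3.23% and 7.34% in p21mTert, 19.1% and 12.2% in p21mTertCD and 1.16% in WT_1. Both p21mTertCD libraries lay above all others. The Il1b/Cxcl2 neutrophils had 22.2% and 15.9% in p21mTertCD and 2.93% to 7.60% in the other libraries, and the B cell gate 0% to 0.260%. Over all libraries the thinned share was 7.37% (26.0% unthinned). Without thinning the shares were 47.2% and 36.6% in p21mTertCD and 12.9% to 33.0% in the other libraries. The B cell gate was at 3.64% and 1.74% in p21mTertCD and at 0.368% to 2.26% elsewhere, so p21mTertCD_1 was the highest there too. The share in Retnlg/Mmp8 neutrophils depended on the depth per cell, and both p21mTertCD libraries lay above the others at either depth.

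The list was also counted without single libraries and cells. Without p21mTertCD_1 its median was 1.09, and 21 genes of the list lay higher, where 23.8% of all genes then did. Without 1 p21Het or p21mTertCD library in turn, 21 to 23 of 26 genes were higher, where 9.14% to 23.8% of all genes were. The count was 18 without the highest doublet scores (8.02% of all genes) and 20 without cells holding a lymphocyte UMI (8.89%). In the Il1b/Cxcl2 neutrophils 17 of 26 were higher and 2 lower, where 6.56% and 4.91% of all genes were. The T and NK cell markers given above were also higher in p21mTertCD (139 to 391 CPM) than in p21Het (10.98 to 101.3), and Cd3g (4.02) and Cd3d (2.78) were among the genes of smallest p. They were not called by edgeR (adjusted p = 0.394 and 0.641), but both were with a term for the deposit, and DESeq2 called Cd3g. Slfn8 (1.76) and the chromatin protein gene Smchd1 (0.97) were the other genes named by rule, with edgeR adjusted p of 0.455 for both. The 2 p21mTertCD libraries both came from the later deposit; with that deposit alone edgeR called Rtp4 with an adjusted p of 0.0275.

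Other lists differed less in p21mTertCD minus p21Het. The secondary granule list had a median of -0.84 (-0.14 without p21Het_2), with Lcn2 and the leukotriene B4 receptor gene Ltb4r1 lower in both p21mTertCD libraries (2 of 11; 6.5% of all genes). Of 22 glycolysis and hypoxia genes, 3 were apart and lower, and 5 had a positive log2 fold change (median -0.25). Of 22 NF-kB and inflammatory genes, 4 were apart and higher (7.63% of all genes), with a median of 0.03. Of 16 immediate early genes, 0 were apart (median -0.22). No gene of these lists was called by edgeR. At an unadjusted p under 0.05 there were 171 genes in all (3.53%), and DESeq2 called 5, with Rtp4, Slfn5, Ifi27l2a, Isg15 and Cd3g among them.

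For p21mTert minus p21mTertCD, which compares the 2 mTert alleles, edgeR called 0 of 4848 genes (172, or 3.55%, at an unadjusted p under 0.05), and DESeq2 called 2, Ctsk and Rtp4. This comparison shares the p21mTertCD libraries with the previous one. Values were apart for 247 genes higher (5.09%) and 161 genes lower (3.32%) in p21mTert. Rtp4 had a log2 fold change of -1.93 (SE 0.29, edgeR adjusted p = 0.0808) and was called in 11 of 21 alternatives. Of the 26 interferon response genes, 8 were apart and lower in p21mTert, 2 had a positive log2 fold change, and the median was -0.86 against 0.03 over all genes. Without p21mTertCD_2, 19 were apart and lower (7.74% of all genes), and without p21mTertCD_1 8 were (15.2% of all genes), with a median of -0.47.

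Among the genes of smallest p that were not called, Slfn5 (-1.77) and Ifi27l2a (-1.85) were again interferon-induced. Nktr, a cyclophilin-related protein, was at 304, 383, 331, 470 and 288 CPM in p21mTert and at 152 and 180 in p21mTertCD (log2 fold change 1.07, SE 0.25, edgeR adjusted p = 0.642). Emsy, a chromatin regulator, had a log2 fold change of 1.17, and the unnamed gene D830025C05Rik -1.53. Prnp, the prion protein gene, was at 2.57 to 8.18 CPM in p21mTert and at 28.5 and 29.2 in p21mTertCD (-2.78, edgeR adjusted p = 0.601). Ctsk (-4.81), a cathepsin of macrophages and osteoclasts, and the surfactant genes Sftpa1 (-2.81) and Sftpd (-2.96) belong to other lung cells. Sftpa1 was at -0.018 and Sftpd at -0.48 without the highest doublet scores, and at -1.87 and -1.22 without p21mTertCD_1. Macrophage markers, all 10 detected, summed to 41.8 to 206 CPM in p21mTert and 108 to 265 in p21mTertCD, and epithelial markers, all 7 detected, to 2367 to 5379 and 4229 to 8271. The part of this RNA in the values of Ctsk, Sftpa1 and Sftpd was not tested.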

How the data were processed

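Whole mouse lungs were dissociated with dispase and collagenase and profiled with the 10x Genomics V2 3′ kit, per the labels' protocols. The authors mapped reads to mm10 and made the deposited UMI count matrices with Cell Ranger, per the submitters' processing notes. The version differs between the design text and the file headers and is not stated here. The values are raw counts per gene (31053 features) and barcode, without the filters described in the design text, so these were applied here. The members, lists and tests were chosen with earlier results of these data known, and no list is independent support for its direction. Doublets stayed in. Scrublet in scanpy 1.11.5 scored them, and since its own thresholds marked 0% to 3.59% of cells, the highest-scoring cells up to 0.8% per 1000 barcodes were left out as an alternative chosen after this was seen.

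UMIs were summed per library over the Retnlg/Mmp8 neutrophils (at least 20 cells needed) and tested by edgeR's quasi-likelihood method (edgeR 4.0.16, R 4.3.3, TMM scaling after filterByExpr) in 1 fit with group as the term over all 10 libraries of replicated groups, at an adjusted p (Benjamini-Hochberg over all genes) under 0.05. The 11 genes of the rule were in the fit and out of the counts. DESeq2 1.42.0 was an alternative, and the test was checked on simulated data. CPM was computed here from the deposited counts. Shares were tested with 2-sided exact permutation tests adjusted over 6. WT, with 1 library, entered no test. Genes were called apart where no library of 1 group lay within the range of the other.

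Named were Cdkn1a, Tert, the 11 genes of the rule, and for each contrast the called genes, or up to 10 genes of smallest p, whose groups were apart and whose higher group averaged 10 CPM or more. For the states, 15 genes per direction with the largest mean ratio, at least 50 CPM and 1 sign in all libraries were named, and for lists the members of highest level. Other list members, Oasl2, Irf7, Rsad2 and Ifit3 among them, were chosen after their values were seen. Some genes that meet these rules are not reported here. Gene positions are from GENCODE M21 (GRCm38), and promoters from RefSeq (GRCm38.p6). Alternatives changed the filters, the rule, normalization, deposit and libraries. Python 3.11.15, numpy 2.4.6, pandas 2.3.3, scipy 1.17.1 and matplotlib 3.10.9 were used.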

Additional observations from a re-analysis of the deposited data

Results flagged for a closer look

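Within the 5 p21mTert libraries, 48 measures were screened for a library far from the other 4, and chance alone picks out about 1 in 20 such groups. p21mTert_2 had the lowest Csf3r level at 1362.5 CPM, where the next was 1702.8. p21mTert_1 had the highest Slc7a11 level at 468 CPM (next 287), and Slc7a11 encodes the cystine transporter that is part of the rule. The same library had the highest Cd3g level at 100.33 CPM (next 36.8) and the highest Cd3d level at 113.19 CPM (next 35.6), and its T and NK cell markers summed to 486 CPM. p21mTert_1 is the 1 p21mTert library of the earlier deposit and the 1 given as 20 months old, and these cannot be told apart.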

How the results depend on the processing

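In the share of filtered cells, p21mTert minus p21Het was -2.76 to 0.0684 points with 1 library left out, and p21mTertCD minus p21Het was -1.50 to 1.78 points. For p21mTert minus p21mTertCD it was -3.26 to -0.165. The difference of p21mTertCD from p21Het also changed sign at an 8% mitochondrial limit (-0.111), without the highest Scrublet scores (-0.00698), without lymphocyte UMIs (-0.153) and in the later deposit (-0.589). In the share of neutrophils, p21mTert minus p21Het was -8.97 to -5.89 points with 1 library left out, and passed 0.05 unadjusted without the highest Scrublet scores (-8.43) or lymphocyte UMIs (-7.86). p21mTert minus p21mTertCD was -15.7 to -1.58 points with 1 library left out. p21mTertCD minus p21Het was -6.19 to 7.94 points, -1.20 with R without Retnlg and -0.113 in the later deposit.

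Between p21mTert and p21Het, 143 genes were called with no filter on low counts, 2 by DESeq2 and 0 to 10 with 1 library left out. For p21mTert minus p21mTertCD these counts were 68, 2 and 0 to 2, and 1 gene was called with a term for the deposit, in the later deposit, without the highest Scrublet scores, with R at least 3 above I or without lymphocyte UMIs, and 2 with the 2 groups alone. For p21mTertCD minus p21Het they were 93, 5 and 0 to 2, and 6 genes were called with the deposit term, 2 in the later deposit, without the highest Scrublet scores or without lymphocyte UMIs, and 0 with the 2 groups alone. The test of the difference between states called 140 with no filter, 12 in the later deposit and 0 to 6 with 1 library left out. The cause was not tested in any of these cases.

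With the replicate block, p21mTert against p21Het gave 4 called genes, -1.90 points in the share of cells and -9.89 in the share of neutrophils. p21mTert against p21mTertCD gave 0 genes, -1.84 and -13.2 points, and p21mTertCD against p21Het gave 2 genes, 1.78 and 0.369 points. Same-numbered p21Het and p21mTert libraries had correlated deviations (0.43, 0.14 and 0.22), but the number 1 is not from the labels, and p21Het_3 correlated best with p21mTert_5 (0.27), so the block is an alternative only.

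The interferon median was 0.20 to 0.74 for p21mTert minus p21Het and -1.25 to -0.47 for p21mTert minus p21mTertCD with 1 library left out. The secondary granule median was -1.03 to -0.06 for p21mTert minus p21Het and -1.07 to -0.14 for p21mTertCD minus p21Het. With 1 library left out, Cdkn1a was -0.62 to 0.58 for p21mTert minus p21mTertCD, positive without p21mTertCD_1, and -1.10 to 0.10 for p21mTertCD minus p21Het, positive without p21mTertCD_2. The secondary granule median for p21mTert minus p21mTertCD (0.10) was -0.14 with the replicate block, -0.37 without the highest Scrublet scores and -0.027 to 0.19 with 1 library left out, negative without p21mTertCD_1. The other genes named by rule in the 3 contrasts and the interferon list's median kept their sign under the alternatives that could be fitted for them. Genes chosen after their values were seen and the genes of the state contrast were not refitted one by one. Summed depth, as low as 244359 UMIs in p21mTert_3, limits genes of a few CPM to single UMIs.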

Other observations

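Interferon-induced transcripts were also read in cells outside the neutrophil gate that held 3 or more UMIs of Ly6c2 and Ccr2 and 3 or more of Csf1r and Lyz2, with fewer than 3 of Csf3r and Cxcr2 and none of Cd3e or Cd3d, a monocyte gate. No test was run. Rtp4 was at 59.3 and 44.8 CPM in p21mTertCD, at 16.3, 3.77 and 20.8 in p21Het, at 7.90 to 22.9 in p21mTert and at 18.8 in WT_1. Isg15 was at 200 and 154 CPM in p21mTertCD and at 19.1 to 94.6 in the other 9 libraries. Irf7 was at 155 and 142 CPM against 22.6 to 71.3, and Oasl2 at 92.4 and 68.4 against 9.71 to 42.6. Both p21mTertCD libraries were thus the highest for these 4 genes in the monocyte gate too. Ifit3 differed from them, with 18.3 and 15.5 CPM in p21mTertCD and 23.3 in p21mTert_1. The genes given for this gate were not chosen by a stated rule, and the interferon response list was not counted in it. The share of all genes that were highest in both p21mTertCD libraries is not given, nor is the number of cells in the gate. How often such a ranking arises by chance was not tested.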
